A study of Rattus norvegicus with 36 samples.

Results

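TGFb, transforming growth factor beta, is a secreted signalling protein that drives the scarring of lung tissue. It binds a pair of receptor kinases at the cell surface, which pass the signal to Smad proteins that enter the nucleus and change transcription. In fibroblasts it is known for raising collagen and other matrix genes and the contractile genes of myofibroblasts, and in epithelial cells for holding back growth and loosening cell contacts. These statements are background and were not measured here by gene name.

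The comparison described is that of rat lung slices cultured with TGFb and no drug (6 libraries, time label 72) against rat lung slices cultured without TGFb or drug (6 libraries, time label 72). The 12 libraries were picked by their sample titles, out of 36 in the series, and the titles alone decide which libraries belong. Precision-cut lung slices are thin sections of living lung that keep their mix of epithelial, mesenchymal, endothelial and immune cells in culture. The labels give no unit for the time, no TGFb dose or isoform, and no strain, sex or age of the rats, and they do not say whether the libraries of a group came from separate animals. The p-values therefore rest on a spread between libraries that may be technical. That spread was estimated within the groups of all 36 libraries, not from the 12 alone.

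The deposited tables identify genes by Ensembl ID only, and 0 IDs could be paired with a symbol. Pathway genes, collagens and cell type markers are for this reason not given by name, the labelled tissue was not checked against lung markers, and no sequence is shown. In slices, a change in the number of cells of a type and a change in RNA per cell cannot be told apart. Total counts per library ran between 21288853 and 30499027 with TGFb and between 18971526 and 26361504 without it. A mean of 14645 ± 274 genes with TGFb and 14685 ± 212 genes without it held 10 or more counts (SD, n = 6 each).

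The first question was whether TGFb set the slices apart as a whole. Principal components were taken from log2 CPM, with counts scaled by library totals adjusted by TMM (trimmed mean of M values). The first component carried 34.4% of the variance of the 12 libraries. On it the TGFb libraries scored 38.5, 35.6, 49.1, 48.5, 18.3 and 22.8, in the order of replicates 1 to 6. The untreated libraries scored -30.1, -41.2, -35.2, -31.1, -34.7 and -40.6 in the same order. The groups did not overlap on this axis, and the TGFb libraries were spread more widely along it (SD 12.8) than the untreated ones (SD 4.62). TGFb replicates 5 and 6 lay nearest to the untreated group.

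The second component, with 16.5% of the variance, did not separate the groups. It ran between -38.2 and 36.7 among the TGFb libraries and between -31.2 and 31.6 among the untreated ones. Genes that are absent from the authors' table of expressed protein-coding genes took 11.7% ± 0.676 of the counts with TGFb and 11.2% ± 1.12 without it (SD, n = 6 each), with a range of 10.7% to 12.8% and of 9.9% to 12.8% within the groups. The part of this share in the second component was not tested.

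**Figure D1:**
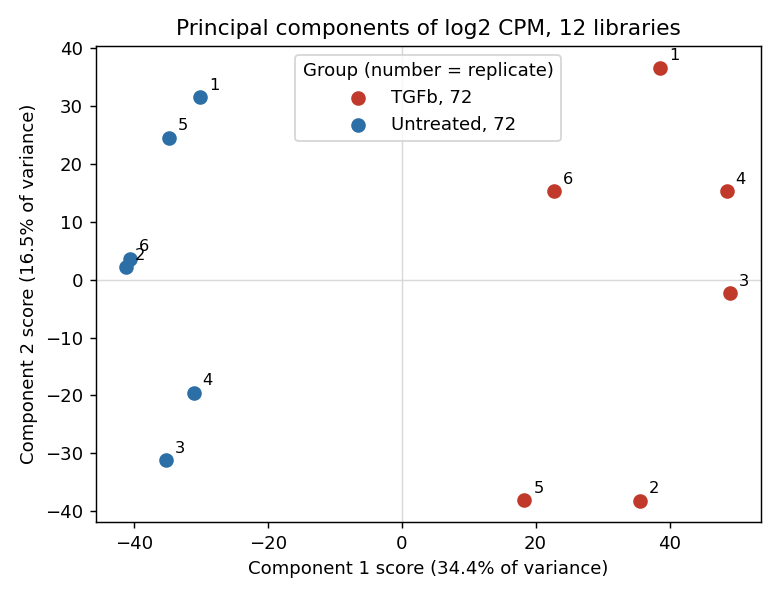
Scores of the 12 libraries on the first and second principal component of log2 CPM, with TGFb libraries in red and untreated libraries in blue and the replicate number beside each point. All 6 TGFb libraries lie at 18.3 or above on the horizontal axis and all 6 untreated libraries at -30.1 or below, while the groups share the same range on the vertical axis.

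The second question was how many genes TGFb changed, in which direction and by how much. Of 15644 genes tested with edgeR's quasi-likelihood test, 4130 were called at an adjusted p (Benjamini-Hochberg) under 0.05, which is 26.4% of the genes tested. TGFb raised 2187 of them (14%) and lowered 1943 (12.4%). The split depends on how libraries are scaled. The TMM scaling factors (trimmed mean of M values) averaged 0.964 ± 0.051 in TGFb libraries and 1.01 ± 0.0478 in untreated libraries (SD, n = 6 each). Of the called genes, 53% were higher with TGFb under TMM and 51% under DESeq2's size factors, against 34.9% on total counts alone. Which direction was in the majority also turned without the filter on low counts (48.6% higher), against a minimum fold of 1.2 (45.3%), without TGFb replicate 3 (48%) and without untreated replicate 2 (48.9%) or 3 (49.4%).

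Most changes were small. Among genes that rose, 1338 did so by less than 1.5-fold, 374 by 1.5-fold to 2-fold, 350 by 2-fold to 4-fold, 87 by 4-fold to 8-fold and 38 by more. Among genes that fell, the numbers in the same bins were 900, 477, 485, 58 and 23. Rises thus outnumbered falls below 1.5-fold and from 4-fold upward, and falls outnumbered rises in between. Below 1.5-fold that order turned round on total counts alone, with 645 rises and 1347 falls. From 4-fold upward it did not, with 83 and 73 in the first of these bins and 35 and 24 in the last.

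**Figure D2:**
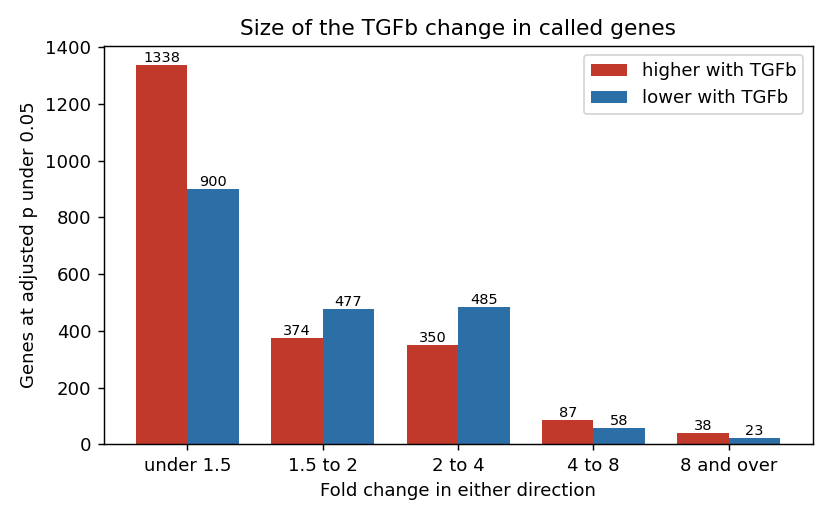
Number of genes called at an adjusted p under 0.05 (vertical axis) in bins of fold change (horizontal axis), higher with TGFb in red and lower with TGFb in blue, under TMM scaling. The bin under 1.5-fold is the tallest in both directions, with 1338 genes higher and 900 lower; on total counts alone it holds 645 and 1347.

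At least 2-fold changes were called in 1041 genes (6.65% of the genes tested), 475 genes that rose (3.04%) and 566 that fell (3.62%). For 2128 genes (13.6%), all 6 TGFb libraries lay on the same side of all 6 untreated libraries. Of these, 1070 were higher with TGFb (6.84%) and 1058 were lower (6.76%). Genes near 0 in one of the groups were counted apart. A gene with so few counts in a group passed the filter on low counts only through groups where it was higher, and rarer genes were removed before the test, so the filter limits how many could be found. Of 15 tested genes with at most 3 counts over the 6 untreated libraries, 3 were called higher with TGFb, and the highest mean among them was 37.4 normalized counts with TGFb. Of 17 tested genes with at most 3 counts over the 6 TGFb libraries, 4 were called lower, and the highest mean among them was 16 normalized counts in untreated slices.

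The calls were also counted by abundance. In the most abundant 20% of the genes, 570 rose and 400 fell, and in the least abundant 20%, 294 rose and 323 fell. Among 341 genes with a mean of at least 10000 normalized counts in the higher group, 122 rose and 33 fell, and 17 and 8 of these changed at least 2-fold. On total counts alone the most abundant 20% held 320 rises and 608 falls, so its direction rests on the scaling. For the genes with at least 10000 counts it did not reverse, with 90 rises and 52 falls. Among called genes, the median absolute log2 fold change was 1.24 in the least abundant 20% and 0.32 in the most abundant. A rarer gene needs a larger change to be called, so these medians do not describe all genes tested.

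**Figure D3:**
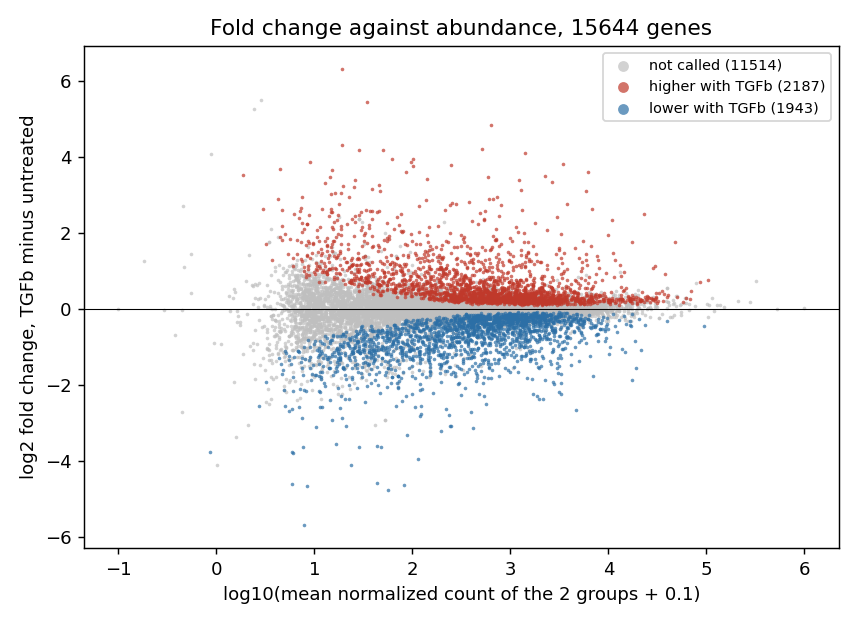
Log2 fold change of TGFb minus untreated (vertical axis) against the mean normalized count of both groups on a log10 scale (horizontal axis) for 15644 genes, with the 2187 called higher in red, the 1943 called lower in blue and the rest in grey. The band of uncalled genes narrows to the right, where smaller changes pass the test.

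Genes outside the protein-coding table were counted apart. Of 1164 such genes 12% were called (78 higher and 62 lower with TGFb), against 27.6% of the 14480 genes inside it (2109 higher and 1881 lower). They were also rarer transcripts, with a median of 22 normalized counts against 506, and the part of abundance in these shares was not tested. In the least abundant 20% of all genes, whose median was 18.1 normalized counts, 19.7% were called.

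The genes that rose held 22.4% ± 0.621 of all normalized counts in TGFb libraries and 17.3% ± 0.397 in untreated libraries (SD, n = 6 each). The genes that fell held 7.5% ± 0.531 with TGFb and 11.6% ± 0.719 without it. These sums describe genes chosen on the same libraries and are not a test. The 10 genes with the largest difference in counts made up 20.2% of the summed rise. Of the 2187 genes that rose, 82 made up 50% of it. For the fall the corresponding values were 15.9% and 118 of 1943 genes.

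The same genes were read in the other groups of the series, whose libraries entered the fit (its filter and its estimate of spread) but not the contrast. The share of the risen genes was 19.9% ± 0.718 with TGFb and Pirf, 21.6% ± 0.542 with TGFb and Nint, 20.6% ± 0.855 with TGFb and Sora, and 13.9% ± 0.846 in untreated slices at time label 0. The share of the fallen genes was 8.95% ± 0.457, 7.79% ± 0.231, 8.94% ± 0.345 and 14.4% ± 0.566 in the same order. Drug names are given as the labels spell them. The genes were called for a difference between TGFb alone and untreated slices at 72, which sets these groups apart by choice. That choice can by itself place another group between them, and a drug effect on these shares was not tested. Among the genes that rose at least 2-fold, the share was 2.85% ± 0.438 with TGFb alone, 0.99% ± 0.0826 in untreated slices at 72 and 1.15% ± 0.283 in untreated slices at 0. Time 0 thus lay below untreated slices at 72 in the mean over all risen genes and above them in the mean over those with at least 2-fold rises, differences that were not tested.

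**Figure D4:**
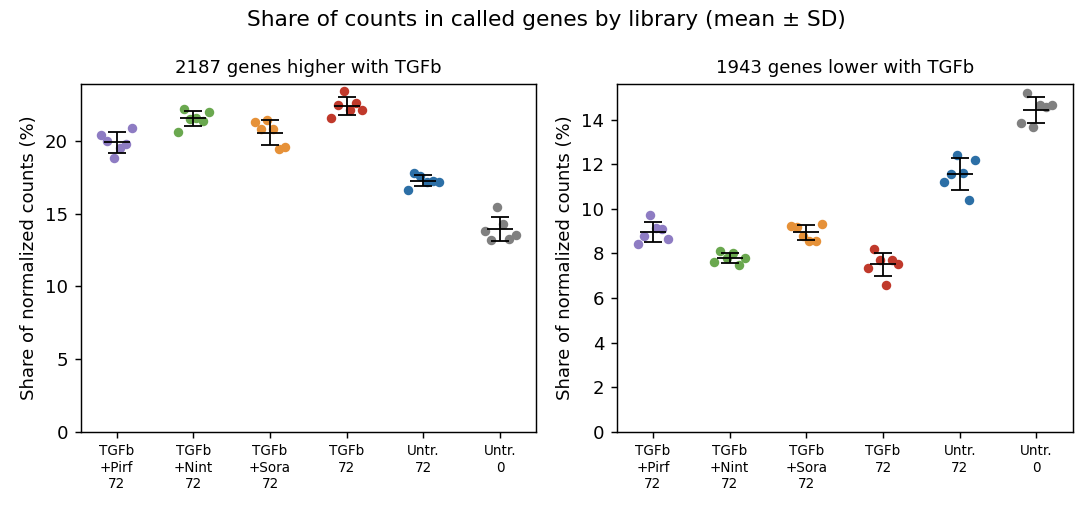
Share of normalized counts (percent, vertical axes) held by the 2187 genes higher with TGFb (left) and the 1943 genes lower with TGFb (right), by group, with a point per library and the mean ± SD in black. TGFb alone averages 22.4% and 7.5%, untreated slices at 72 average 17.3% and 11.6%, and untreated slices at 0 average 13.9% and 14.4%.

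The largest changes are shown on 4 IDs, chosen by their fold change among called genes whose groups did not overlap and whose mean was at least 50 normalized counts in the higher group. By that rule 925 genes that rose and 926 that fell were eligible. All 4 are in the protein-coding table, and none of their 36 values was fractional. Their levels are TMM-scaled counts, which are not corrected for gene length and so compare libraries and not genes.

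ENSRNOG00000003776 had 53, 52.9, 123.6, 56.8, 76.7 and 37 normalized counts in TGFb libraries 1 to 6, against 0, 2.23, 0.937, 0.919, 2.07 and 2.23 in untreated libraries 1 to 6. It was near the limit of detection without TGFb, where the 6 libraries held 8 raw counts in all, and present in every TGFb library. The log2 fold change was 5.45 (SE 0.61, edgeR adjusted p = 2.92e-08). In slices at time label 0 it varied widely, between 1.6 and 68.3 normalized counts, so its highest libraries there overlapped those with TGFb. Untreated slices at 72 were lower than those at 0 (log2 fold change -4.22, SE 0.63, edgeR adjusted p = 3.79e-07).

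ENSRNOG00000011824 had 1101, 774.6, 2680, 991, 966 and 797 normalized counts in TGFb libraries 1 to 6, against 19.8, 61.2, 36.5, 37.7, 63 and 35.6 in untreated libraries 1 to 6. Replicate 3 stood far above every other TGFb library, and even the lowest TGFb library was far above the highest untreated one. The log2 fold change was 4.83 (SE 0.41, edgeR adjusted p = 1.72e-10), and 4.42 without TGFb replicate 3. At time label 0 its level was 174 ± 154 normalized counts (SD, n = 6). Untreated slices at 72 were lower than those at 0 (log2 fold change -2.02, SE 0.40, edgeR adjusted p = 3.93e-05).

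ENSRNOG00000023870 had 7.58, 4.67, 4.19, 2.32, 0.983 and 3.58 normalized counts in TGFb libraries 1 to 6, against 126.9, 116.9, 142.4, 139.7, 54.7 and 78 in untreated libraries 1 to 6. All TGFb libraries were low, with 1 to 7 raw counts each, and untreated replicates 5 and 6 were the lowest of their group. The log2 fold change was -4.77 (SE 0.52, edgeR adjusted p = 1.84e-08).

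ENSRNOG00000003888 had 7.58, 8.55, 2.1, 2.32, 9.83 and 5.97 normalized counts in TGFb libraries 1 to 6, against 211, 152.5, 154.6, 241.6, 91.9 and 90.2 in untreated libraries 1 to 6. Here too the groups were far apart, and the same pair of untreated libraries was the lowest. The log2 fold change was -4.64 (SE 0.6, edgeR adjusted p = 3.89e-07). At time label 0 it stood at 88 ± 48.9 normalized counts and ENSRNOG00000023870 at 58.5 ± 32.3 (SD, n = 6). In both cases every library lay above every TGFb library. For ENSRNOG00000023870 the margin was narrow, with 8 raw counts in replicate 1 at time label 0 and 7 in TGFb replicate 1. From 0 to 72 in untreated slices, the log2 fold change of ENSRNOG00000023870 was 0.91 (SE 0.41, edgeR adjusted p = 0.0452). That of ENSRNOG00000003888 was 0.84 (SE 0.48, edgeR adjusted p = 0.115), not past the threshold.

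The 4 IDs were also read with a drug added to TGFb, relative to TGFb alone. ENSRNOG00000011824 fell with Pirf (log2 fold change -2.61, SE 0.36, edgeR adjusted p = 4.4e-07) and with Sora (log2 fold change -1.46, SE 0.34, adjusted p = 0.004), while the log2 fold change with Nint was -0.15 (SE 0.33, adjusted p = 0.942). For ENSRNOG00000003776 none of the 3 drug comparisons passed the threshold, with log2 fold changes of -0.23 (SE 0.41, adjusted p = 0.66) for Pirf, 0.07 (SE 0.41, adjusted p = 0.981) for Nint and -0.96 (SE 0.41, adjusted p = 0.112) for Sora. The IDs that TGFb lowered, ENSRNOG00000023870 and ENSRNOG00000003888, rose with Pirf, with log2 fold changes of 1.97 (SE 0.53) and 1.81 (SE 0.6; adjusted p = 0.00261 and 0.0128). With Nint the log2 fold changes were 0.05 (SE 0.63) and 1.80 (SE 0.61; adjusted p = 0.991 and 0.11), and with Sora 1.40 (SE 0.55) and 1.66 (SE 0.61; adjusted p = 0.0787 and 0.0588), none past the threshold. For ENSRNOG00000003888 the fold changes with the 3 drugs were thus of like size, and differences between drugs were not tested. These comparisons share the TGFb-alone libraries with the TGFb comparison. Choosing IDs by their extreme change in those libraries can by itself favour a shift back toward untreated levels. The size of that part was not tested.

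**Figure D5:**
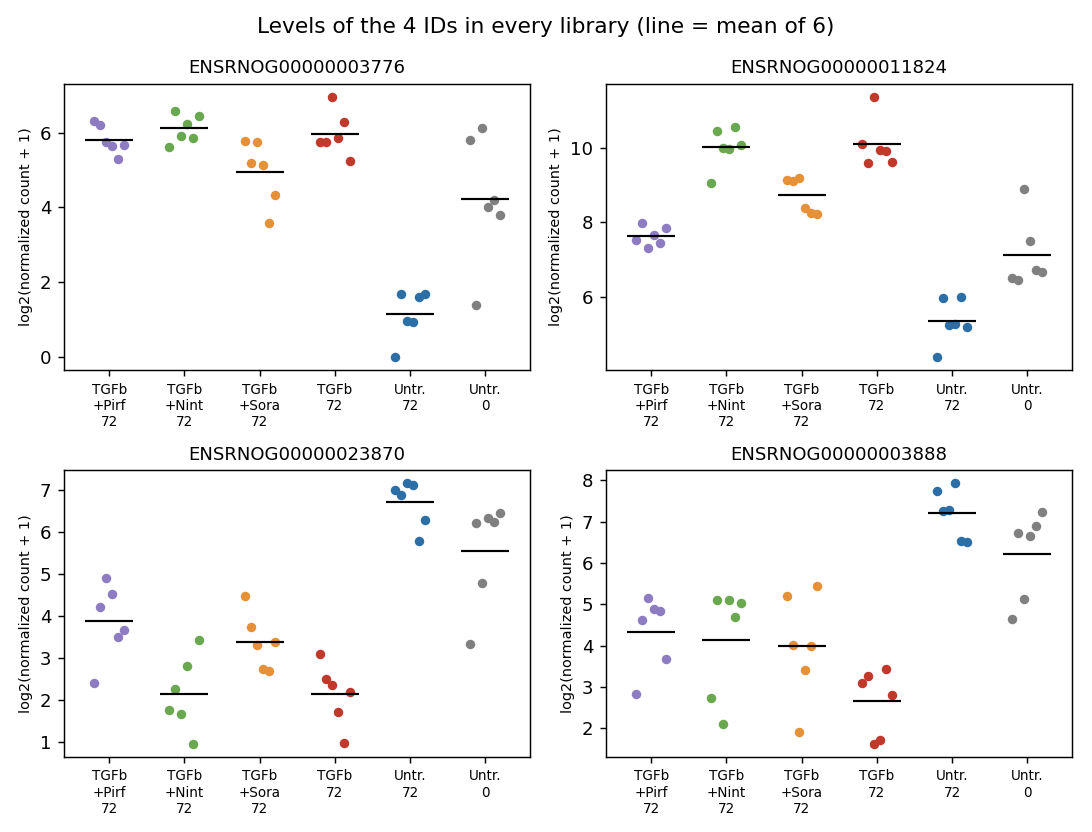
Level of the 4 IDs in all 36 libraries, as log2(normalized count + 1), by group, with a point per library and a line at the mean of 6. The upper panels show the IDs that TGFb raised and the lower panels those it lowered; in each panel the 6 TGFb libraries lie apart from the 6 untreated libraries at 72.

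The last question was whether the response was carried by all TGFb libraries or by a few. Each library was left out in turn, genes were called without it, and the left-out library was then read on those genes. A left-out TGFb library lay on the called side of the untreated mean for 92.9% to 98% of the genes, and its mean change was 81.6% to 102.8% of that of the other 5. For a left-out untreated library, read against the TGFb mean, the values were 95.8% to 98.6% and 84.9% to 101.2%. The libraries of the opposite group were used both to call the genes and to measure the change, so these shares are a description. Among genes called at least 2-fold, the lowest share was 91.9%, for TGFb replicate 5, and the other 5 TGFb libraries lay between 95.8% and 98.7%.

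Within both groups, single libraries were often the highest or lowest. Tied libraries, such as those without counts for a gene, were credited to the first replicate number among them. This can add to the shares of replicate 1 as the lowest, and the ties were not counted. TGFb replicate 3 was the highest library of its group for 44.6% of the 475 genes that rose at least 2-fold, and for 21.1% of the 11514 genes that were not called. TGFb replicate 1 was the lowest of its group for 36.6% of the risen genes, against 19.6% of the genes not called. In the untreated group, replicate 2 was the highest for 31.4% of the same risen genes and replicate 1 the lowest for 33.3%, against 14.5% and 17.9% of the genes not called. Among the 566 genes that fell at least 2-fold, TGFb replicate 4 was the lowest library for 32.2% and TGFb replicate 1 the highest for 31.8%, each against 16.5% of the genes not called. In the untreated group replicate 4 was the lowest for 26.1% of these and replicate 3 the highest for 32%, against 13.3% and 18.8% of the genes not called. Without TGFb replicate 3, 434 genes rose at least 2-fold and 565 fell. In only 1 of the 2187 genes that rose did a single TGFb library supply more than 50% of the group's normalized counts. The coefficient of variation was read among genes with at least 50 normalized counts in both groups. Its median for those that rose was 10.8% with TGFb and 9.28% without it. For those that fell it was 13.1% with TGFb and 11% without it. For the 8955 such genes that were not called it was 10.5% with TGFb and 10.1% without it.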

How the data were processed

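Per the labels' protocols, RNA was extracted with a Qiagen kit and made into stranded total RNA libraries after ribosomal RNA removal. The tools RSEM and edgeR and the build Rnor_6.0 are named, per the submitters' processing notes, without versions. The strand setting, aligner and annotation release were not given in the sources used here. Expected counts were deposited by the authors for 32883 Ensembl IDs, and 8.59% of the values were not whole. RSEM can divide a read among similar genes, so counts of near-identical copies are uncertain. The authors also deposited log2 CPM for 14984 genes, which the table's name describes as coding and expressed. Recomputing edgeR's log2 CPM from the counts (TMM factors, prior count 0.25) gave the same values, and the table served only to class genes.

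Expected counts were rounded and entered edgeR 4.0.16 under R 4.3.3 (filterByExpr, TMM, glmQLFTest). All 36 libraries were fitted together, each group with its own mean and without covariates, and p-values were adjusted by Benjamini-Hochberg over 15644 genes at a threshold of 0.05. Normalized counts are scaled by TMM to the mean library total. Components used log2 CPM with TMM factors and a prior count of 2. SE is the absolute log2 fold change over the square root of F. The procedure was run on simulated counts with a small set of genes changed equally often in both directions and a fixed spread. That setting differs from these data, so it did not test how the split by direction depends on scaling. Alternatives used limma 3.58.1, DESeq2 1.42.0 and other settings given at the end. Gene lists, cell type markers and genes fixed by name could not be used without symbols. The naming rule ranked called genes with no overlap and at least 50 counts by log2 fold change, and the first 2 IDs in each direction are given. The comparison and the gene lists were chosen with earlier results of these data known, and the libraries follow from their titles.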

Additional observations from a re-analysis of the deposited data

Results flagged for a closer look

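The check covered 58 groups of 6 values, from the 4 IDs and the library measures. In it, 3 single libraries stood apart by a gap of over 0.625 of the group's range. Chance gives about 1 in 20 groups, so 3 flags among 58 are close to the number that chance would give. ENSRNOG00000011824 stood at 2680 normalized counts in TGFb replicate 3, with the next library at 1101. The same ID stood at 479.8 normalized counts in untreated replicate 3 at time label 0, with the next library at 180. Untreated replicate 1 at 72 held 14273 genes with 10 or more counts, the lowest of its group, with the next at 14691, and it also had the lowest total of the 12 libraries, at 18971526 counts.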

How the results depend on the processing

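The 4 IDs kept their direction and their call under all 21 alternatives run, with a highest adjusted p of 2.71e-05 (limma-voom). They were chosen for extreme changes in the same libraries, so this is a description and not a test. The number of genes called, 4130, was 4367 with DESeq2, 4155 with limma-voom, 3789 in a fit of the 12 libraries and 3619 without a filter on low counts, and no gene called in both reversed under any of the 21. On total counts alone 1363 genes were higher with TGFb and 2543 lower, with a median log2 fold change over the tested genes of -0.05, against 0.02 with TMM. Against a fold of 1.2, 1779 genes were called, 805 higher and 974 lower, and of the genes with at least 10000 counts 28 rose and 16 fell. Leaving out 1 library gave 3558 (TGFb replicate 4) to 4054 calls. Outside the coding table, 50 genes rose in the fit of 12 libraries, 94 fell without the filter, and 35 rose and 41 fell against a fold of 1.2. Among alternatives chosen after seeing the data, 4400 genes were called with the share of counts outside the coding table as a covariate and 3837 without TGFb replicates 5 and 6. The samples share only a replicate number: same-numbered TGFb and untreated libraries had correlated deviations of -0.08 to 0.35, and 2 of the 6 pairs were over 0.1. With the replicate block 4243 genes were called, and it ended no call of the 4 IDs. Only 1 of the 6 TGFb libraries correlated best with its own number. For IDs with under 10 counts in a library, counting error limits the fold change.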
